A study of Mus musculus with 28 samples.

Results

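The step described here is the 12 h from day 3 to day 3.5 of wild-type (WT) embryoid bodies (EBs), in which cells left the primitive streak (PS) state. All cells of the 2 WT day 3.5 libraries and the 2 WT day 3 libraries in the deposited table of annotated cells were taken, with no selection on any measured value. This gave 14295 of the 31596 cells of the series, of which 9834 were of day 3.5 and 4461 of day 3.

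Gastrulation turns the epiblast, a single pluripotent sheet, into germ layers. Epiblast cells gather at the PS, pass through it and emerge as nascent mesoderm, and the first mesoderm to leave the posterior streak is extraembryonic, feeding the yolk sac with its blood islands and vessels and later the allantois. In the mouse embryo the passage through the streak is driven by Nodal/Activin, BMP and Wnt signals and by the T-box factors Eomes and T. EBs, aggregates of differentiating embryonic stem cells (ESCs), pass through a similar sequence in culture.

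The 10x Genomics multiome assay was run on nuclei of EBs, giving RNA and open chromatin of each nucleus, in 14 libraries of WT and Eomes-depleted cultures. Every culture, WT included, came from 1 ESC line that carries a Runx1-Venus reporter and a degron with mCherry on both Eomes alleles, so that WT here means a tagged line whose EOMES protein was not depleted. WT day 3.5 cells had been kept in VEGF, BMP4 and Activin A since day 2 and in the DMSO vehicle since day 3. WT day 3 cells had received the same factors, and the names of their libraries carry no mark of a vehicle. WT day 3.5 consisted of replicate 1 from the experiment called exp1 (2443 cells) and replicate 2 from exp2 (7391 cells), which were EB differentiations weeks apart. WT day 3 consisted of replicates 1 and 2, both from exp2 (2781 and 1680 cells). No label says whether the day 3 replicates were separate cultures, so the spread between them may be technical. The edgeR tests of labels took their spread from every group of the series with 2 libraries, not from the day 3 pair alone. The later day, the addition of DMSO and, for replicate 1 of day 3.5, the experiment cannot be told apart, but values within exp2 are free of the last.

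The median RNA count per cell was 17372 and 8207 in the exp1 and exp2 libraries of day 3.5, against 10966 and 12479 in replicates 1 and 2 of day 3. The 4 libraries held 22336824 to 70753971 RNA counts each. Pairs of libraries shared 3 to 35 cell barcodes, at most 1.43% of the smaller library. Both day 3 libraries had the same cell type makeup within counting error (chi-square test, 2 df, p = 0.978). However, they differed in atlas labels (chi-square 91.7, 2 df) and in mapped stages (chi-square 214, 3 df). Such a difference between single libraries can be technical, so it cannot tell whether they were separate cultures. The libraries were kept as 2 samples because the labels give them so. All shares are of annotated cells of a library and have to add up to the whole. A label can therefore lose share because another gained it. Expression of single genes was not analysed here, so the labels were not checked against marker genes, and each label is the authors' call.

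Each cell carried the most frequent label among its 25 nearest neighbours in a mouse gastrulation atlas spanning E6.5 to E8.5. The atlas has a first set of labels, an extended set with a finer division of mesoderm, and the embryonic stage of each atlas cell.

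The atlas labels of most cells changed within these 12 h. At day 3.5, nascent mesoderm, the cells that have just left the streak, was the leading label and mixed mesoderm, a label for mesoderm not yet assigned to one fate, came next. At day 3, PS was the leading label and epiblast, its source, came next. In the edgeR quasi-likelihood test of cells per label, 6 labels were higher (30.0% of the 20 tested) and 2 lower (10.0%) at day 3.5, 40.0% in all, and 14 of the 20 had any cell in these 4 libraries. With TMM factors, which centre on the bulk of labels, in place of the number of cells as library size, 6 were higher and 0 lower, and the median log2 change of those 14 labels moved by 1.34 relative to the scale used here.

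Nascent mesoderm made up 50.2% and 57.6% of the exp1 and exp2 libraries at day 3.5, against 6.54% and 5.71% of the day 3 replicates. The groups did not overlap, with means of 53.9% ± 5.26 and 6.13% ± 0.587 (SD, n = 2 each). The share was 8.79-fold higher at day 3.5, a log2 change of 3.14 (SE 0.36, adjusted p = 0.000593, edgeR). Here and below, the SE of a log2 change is an approximation derived from the F statistic of the test. Mixed mesoderm appeared within the step. It took 639 cells (26.2%) and 1909 cells (25.8%) at day 3.5, against 0 of 4461 cells at day 3, which is at least 181-fold higher when the floor of 3 cells is taken per library (adjusted p = 9.91e-05, edgeR). The mean at day 3.5 was 26.0% ± 0.232 (SD, n = 2), so the 2 libraries were closer in this label than in nascent mesoderm.

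Cells with the PS atlas label made up 9.13% and 6.95% of the libraries at day 3.5, against 84.8% and 76.2% at day 3. The means were 8.04% ± 1.54 and 80.5% ± 6.08 (SD, n = 2 each), a log2 change of -3.32 (SE 0.36, adjusted p = 0.000593, edgeR). With TMM factors the change was -1.95 and missed the threshold (adjusted p = 0.0587, edgeR). Epiblast cells made up 0.941% and 0.257% at day 3.5, against 8.31% and 17.9% at day 3. The day 3 replicates themselves were far apart in this label, and the test only just passed (log2 change -4.48, SE 1.37, adjusted p = 0.04997, edgeR). The call was lost when any of the 4 libraries was left out (adjusted p from 0.0773 to 0.248), when the day 3 libraries were summed (0.109) and with TMM factors (0.0922), though the direction held each time. Without a filter on low counts the epiblast call was lost as well (adjusted p = 0.0586, edgeR). It held with the experiment as a block (log2 change -5.87, adjusted p = 0.000291, edgeR) and in the 4 libraries alone (0.00931, edgeR). With limma on arcsine square root shares (0.00709) and with DESeq2 (0.0246) the call also held. The atlas labels of streak and epiblast summed to 10.3% and 7.48% at day 3.5, against 93.1% and 94.1% at day 3.

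**Figure D1:**
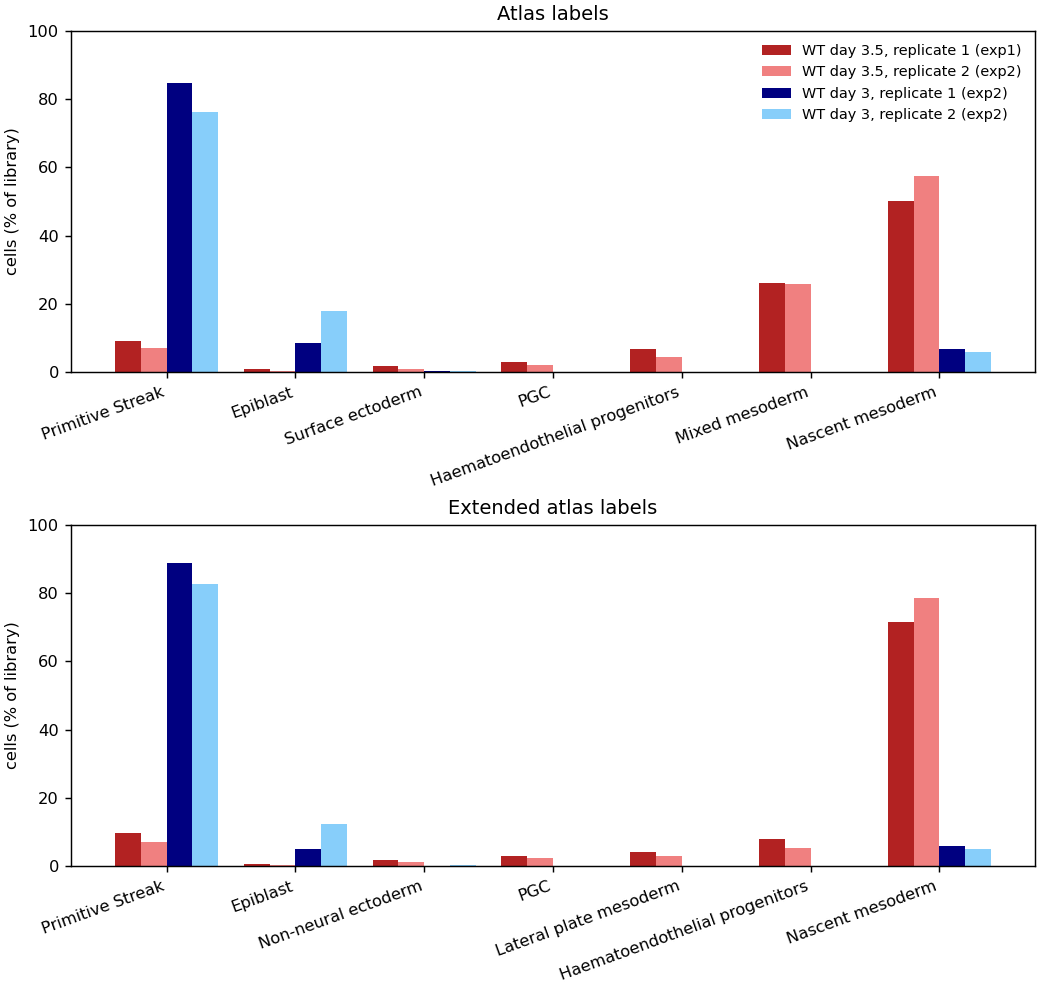
Share of cells (% of library, y axis) with each atlas label (upper panel) and each extended atlas label (lower panel) that held 1% or more of any of the 4 WT libraries, with 1 bar per library and no error bar. Nascent mesoderm stood at 50.2% and 57.6% in the day 3.5 libraries, against 6.54% and 5.71% in the day 3 libraries, and mixed mesoderm has no counterpart among the extended labels.

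Smaller labels were also higher at day 3.5. Haematoendothelial progenitors, the common source of blood and endothelium, made up 6.59% and 4.21% at day 3.5, against 0 of 4461 cells at day 3 (at least 37.7-fold higher, adjusted p = 0.00422, edgeR). Primordial germ cells (PGCs), the founders of the germ line, which arise next to the posterior streak in the embryo, made up 2.87% and 2.10% at day 3.5, against 0 cells at day 3 (at least 17.3-fold higher, adjusted p = 0.000795, edgeR). Surface ectoderm made up 1.60% and 0.947% at day 3.5, against 0.144% and 0.119% at day 3 (log2 change 3.20, SE 0.46, adjusted p = 0.00129, edgeR). With 0 cells counted, a share of up to 0.108% could have been missed in replicate 1 of day 3 and of up to 0.179% in replicate 2. The labels of extraembryonic mesoderm and its hematovascular derivatives thus summed to 7.57% and 4.88% at day 3.5, and to 0 cells at day 3.

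Extraembryonic (ExE) mesoderm itself was still a rare label, with 23 cells (0.941%) and 49 cells (0.663%) at day 3.5 and 0 cells at day 3 (adjusted p = 0.00530, edgeR, and 0.572 with limma on arcsine square root shares). Of the labels that missed the threshold, rostral neurectoderm had 24 and 41 cells at day 3.5, against 4 and 0 at day 3 (adjusted p = 0.230, edgeR), and intermediate mesoderm had 5 and 34 cells at day 3.5, against 0 and 0 at day 3 (adjusted p = 0.230, edgeR). Caudal epiblast was seen in 1 of the 4 libraries, with 20 cells in the exp2 library of day 3.5. Of the 29 atlas labels of the series, 20 occurred at day 3.5 and 8 at day 3, 13 of them at day 3.5 alone and 1 at day 3 alone, from 9834 and 4461 cells.

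The extended labels drew the mesoderm differently. Nascent mesoderm made up 71.6% and 78.8% at day 3.5, against 5.83% and 5.06% at day 3, with means of 75.2% ± 5.04 and 5.44% ± 0.541 (SD, n = 2 each) and a log2 change of 3.79 (SE 0.76, adjusted p = 0.00641, edgeR). PS made up 9.66% and 7.02% at day 3.5, against 88.8% and 82.6% at day 3 (log2 change -3.36, SE 0.66, adjusted p = 0.00641, edgeR). Across the 26 extended labels tested, of which 16 had cells in these libraries, 6 were higher (23.1%) and 1 lower (3.85%) at day 3.5, 26.9% in all. Under TMM scaling the numbers were 3 and 0, and both nascent mesoderm and PS missed the threshold (adjusted p = 0.138 for each, edgeR). Nascent mesoderm also missed it when either day 3 library was left out (adjusted p = 0.0632 both times, edgeR).

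Mixed mesoderm accounted for most of this shift between label sets. Of the cells with that atlas label, 81.4% and 83.7% in the exp1 and exp2 libraries were nascent mesoderm in the extended set, 11.3% and 8.12% were lateral plate mesoderm, and 5.16% and 4.71% were haematoendothelial progenitors. Every ExE mesoderm cell of these libraries (23 and 49) was lateral plate mesoderm in the extended set, the tissue that lines the body cavity and is continuous with ExE mesoderm in the embryo. Lateral plate mesoderm had 98 and 212 cells (4.01% and 2.87%) at day 3.5, against 0 cells at day 3 (at least 24.0-fold higher, adjusted p = 0.00327, edgeR).

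The label of haematoendothelial progenitors kept its name in both sets. Of the cells that had it in the first set, 98.1% and 96.1% had it in the extended set, where the label held 7.82% and 5.26% at day 3.5 and 0 cells at day 3 (at least 45.7-fold higher, adjusted p = 0.00512, edgeR). PGCs took 2.74% and 2.16% at day 3.5, against 0 cells at day 3 (adjusted p = 0.00354, edgeR). Non-neural ectoderm, the extended name of 89.7% and 91.4% of the surface ectoderm cells at day 3.5, took 1.68% and 1.04% at day 3.5, against 0.0719% and 0.119% at day 3 (log2 change 3.79, SE 0.80, adjusted p = 0.00684, edgeR). That call was lost without either day 3 library (adjusted p = 0.0793 without replicate 1 and 0.0538 without replicate 2, edgeR).

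The 2 label sets also parted over the epiblast. Of the epiblast cells of the first set at day 3, 58.4% and 64.8% were epiblast in the extended set, and 40.7% and 35.2% were PS. Epiblast in the extended set took 0.532% and 0.0947% at day 3.5, against 4.85% and 12.1% at day 3, and missed the threshold (log2 change -4.81, SE 1.49, adjusted p = 0.0500301, edgeR), but passed it with the experiment as a block (-6.42, adjusted p = 0.00211, edgeR). Paraxial mesoderm, the source of somites and head mesoderm, had 5 and 29 cells at day 3.5 and 0 at day 3. Its call (adjusted p = 0.0467, edgeR) was lost when any of the 4 libraries was left out (adjusted p from 0.0716 to 0.181).

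The mean mapped stage did not separate the days. The mean mapped stage was E7.203 and E7.212 in the exp1 and exp2 libraries of day 3.5, against E7.190 and E7.218 in the day 3 replicates. The day 3.5 values lay between those of day 3, and the difference of the means was 0.00276 embryonic days (two-sided exact permutation test, p = 1, where the smallest p that 2 against 2 libraries can give is 0.333). The median was E7.25 in all 4 libraries. In exp2 alone the difference was 0.00722 embryonic days. For the cells whose RNA count was above their library's median it was -0.0154. The next half-day differed: WT day 4 libraries mapped to E7.554 (exp1) and E7.671 (exp2) on average, and the single WT libraries of days 4.5 and 5 to E7.940 and E7.988.

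Behind the similar means, the stages were spread more widely at day 3.5. Of the 8 stages tested, 3 were higher (37.5%) and 1 lower (12.5%) at day 3.5, 50.0% in all. The earliest stage, E6.5, before or at the start of streak formation, had 3 and 3 cells at day 3.5, against 33 and 42 cells at day 3, or 0.0817% ± 0.0581 and 1.84% ± 0.929 (SD, n = 2 each, log2 change -4.59, SE 1.42, adjusted p = 0.0188, edgeR). E7.5 had 3.93% and 5.41% at day 3.5, against 0.539% and 0.119% at day 3 (log2 change 3.74, SE 0.99, adjusted p = 0.0105, edgeR). E7.75 had 12 and 49 cells at day 3.5, against 1 and 0 at day 3 (adjusted p = 0.0236, edgeR), and E8.0 had 13 and 41 cells at day 3.5, against 0 and 0 (at least 3.79-fold higher, adjusted p = 0.0105, edgeR).

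These stage calls rested on few cells and few neighbours. The median share of neighbours behind the stage was 0.32 for cells mapped to E7.75 and to E8.0 in the exp2 library of day 3.5, and among cells with a share of 0.5 or more behind the label 0 stages were higher and 0 lower. The day 3 libraries summed to 1 sample gave 0 and 0 as well, with adjusted p from 0.0547 to 0.0798 for the 4 stages. The stages E7.0 and E7.25 together held 94.8% and 93.2% at day 3.5, against 98.2% and 97.4% at day 3. E7.0 alone held 25.6% and 24.3% at day 3.5, against 21.0% and 5.36% at day 3, and missed the threshold (adjusted p = 0.363, edgeR), as did E7.25 with 69.2% and 68.9% at day 3.5, against 77.2% and 92.0% at day 3 (adjusted p = 0.677, edgeR).

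**Figure D2:**
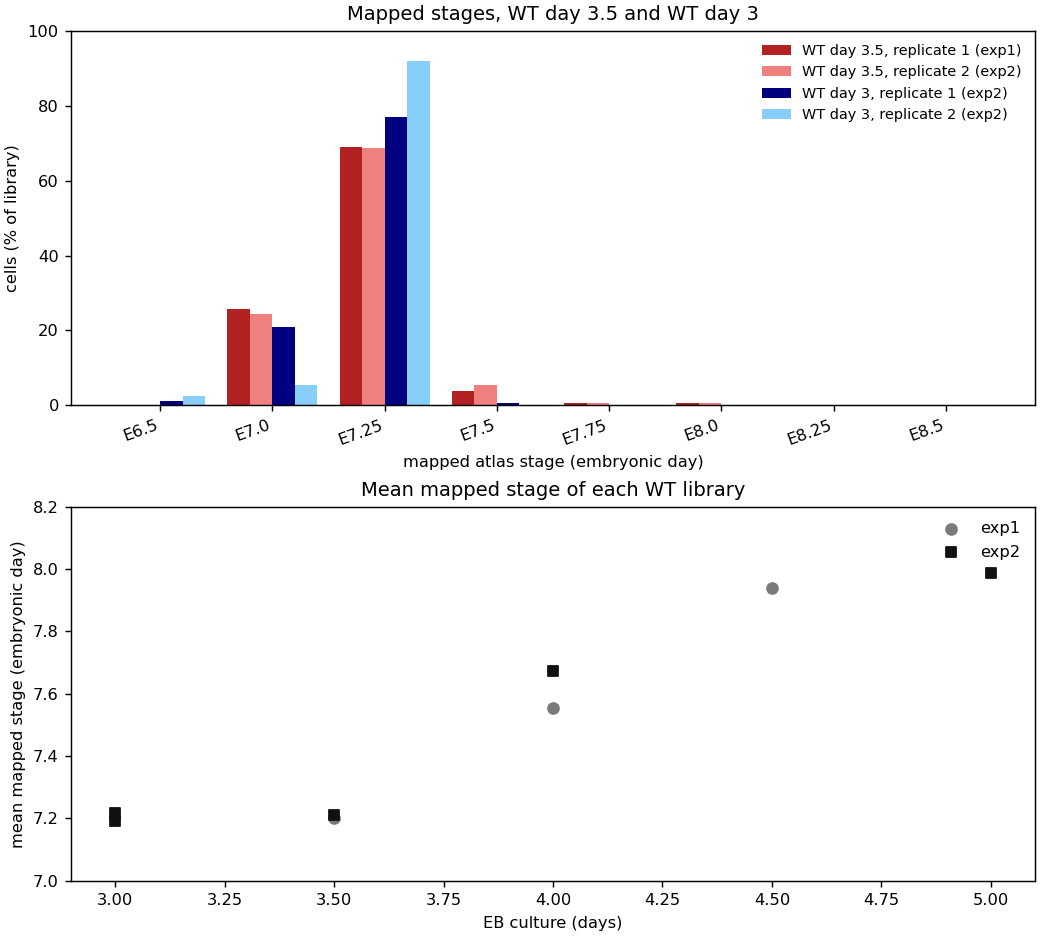
Upper panel, share of cells (% of library, y axis) mapped to each atlas stage (embryonic day, x axis), with 1 bar per WT library of days 3.5 and 3. Lower panel, mean mapped stage (embryonic day, y axis, from E7.0) of each WT library by day of EB culture (x axis), where the libraries of days 3.5 and 3 lie between E7.190 and E7.218 and those of day 4 at E7.554 and E7.671.

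Labels differed in their mapped stages, but label and stage come from the same nearest atlas cells, so the calls are not independent. Surface ectoderm was mapped before E7.25 in 84.6% and 52.9% of its cells at day 3.5 (39 and 70 cells). Cells labelled haematoendothelial progenitors were mapped before E7.25 in 44.1% and 51.4% of cases at day 3.5, PGCs in 47.1% and 34.2%, and mixed mesoderm in 25.2% and 37.9%. Nascent mesoderm was mapped before E7.25 in 18.7% and 16.2% at day 3.5, against 13.2% and 15.6% at day 3, so that its mean stage stayed between E7.209 and E7.217 in all 4 libraries. PS cells were mapped before E7.25 in 42.6% and 25.7% at day 3.5, against 23.4% and 5.16% at day 3. These groups did not overlap, but the exp2 value of day 3.5 was close to replicate 1 of day 3.

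Cells mapped to E7.5 at day 3.5 most often had the mixed mesoderm label (31 and 111 cells) or the nascent mesoderm label (26 and 120 cells). As a share of their own cells, some small labels were mapped later more often. Rostral neurectoderm, the front of the neural plate, was mapped after E7.25 in 95.8% and 87.8% of its cells at day 3.5 (24 and 41 cells), ExE mesoderm in 52.2% and 51.0% (23 and 49 cells), and all 20 caudal epiblast cells of exp2 were. Of nascent mesoderm, only 2.12% and 2.84% of cells were mapped after E7.25 at day 3.5, and 0 cells of either library at day 3. By cell type, 15.3% and 18.5% of PS cells were mapped after E7.25 at day 3.5, against 0.583% and 0.0604% at day 3.

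The share of neighbours that backed a label gives a measure of how clear the call was. Over all cells its median for the atlas label was 0.80 and 0.76 at day 3.5, against 0.80 and 0.76 at day 3. For nascent mesoderm it was 0.88 and 0.88 at day 3.5, against 0.76 and 0.74 at day 3. For PS it was 0.80 and 0.68 at day 3.5, against 0.84 and 0.80 at day 3, so the label that led each day was the better backed one. Haematoendothelial progenitors were well backed (0.92 and 0.88 at day 3.5), mixed mesoderm less so (0.68 and 0.64), and PGCs (0.56 and 0.52), ExE mesoderm (0.48 and 0.48) and surface ectoderm (0.44 and 0.44) less again. Rostral neurectoderm had 0.50 and 0.48 at day 3.5. In the exp2 library of day 3.5, caudal epiblast had 0.48 and intermediate mesoderm 0.40. With the extended labels the median over all cells was 0.92 and 0.92 at day 3.5, against 0.80 and 0.76 at day 3.

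Cells of the 2 days matched partly different atlas cells. The nearest atlas cells of the day 3.5 libraries were 668 and 1202 distinct cells, against 486 and 359 for the day 3 libraries. The 10 most used of them took 28.2% and 27.3% of cells at day 3.5, against 40.8% and 34.2% at day 3. As an effective number (the inverse Simpson index, which is less tied to the number of cells than a plain count), these came to 79.0 and 87.4 at day 3.5, against 37.9 and 56.2 at day 3. The day 3.5 libraries shared 362 atlas cells, which were nearest to 79.2% and 72.0% of their cells. The day 3 libraries shared 152, which were nearest to 70.2% and 74.5% of theirs. Between a day 3.5 and a day 3 library, 43 to 109 atlas cells were shared, and these were nearest to 2.95% to 10.5% of the day 3.5 cells, against 23.8% to 53.7% of the day 3 cells. Few cells of day 3.5 were thus placed on atlas cells that day 3 also used, although the mean stages were alike.

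The authors' cell types were built from clusters of RNA and chromatin together, with the atlas labels as one guide, so cell types and labels are not independent. Of the 12 types tested, 7 were higher (58.3%) and 1 (PS) lower (8.33%) at day 3.5, 66.7% in all, and 8 of the 12 had any cell in these libraries. The PS type made up 10.7% and 11.3% at day 3.5, against 98.6% and 98.6% at day 3 (log2 change -3.17, adjusted p = 0.000231, edgeR). Its call was lost with TMM factors (-0.43, adjusted p = 1, edgeR). Those factors centre on the bulk of types, but all 8 types with cells in these libraries were called. The median log2 change of the 8 moved by 1.66 with TMM factors. The table codes 2 early mesoderm types as EOi and EOd, and these codes are used here as they stand.

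PS cells of the 2 days carried different labels. Cells of the PS type had the PS label in 69.7% (95% Wilson interval 63.9 to 74.99) and 53.7% (50.3 to 57.1) of cases at day 3.5, against 85.3% (84.0 to 86.6) and 76.6% (74.5 to 78.5) at day 3. Intervals cover counting error only. Nascent mesoderm was the label of 7.66% and 29.7% of PS cells at day 3.5, against 5.87% and 5.19% at day 3, a difference that was large in exp2 and small with the exp1 library. Epiblast was the label of 8.81% and 2.28% of PS cells at day 3.5, against 8.42% and 18.2% at day 3, where the groups overlapped. Rostral neurectoderm was the label of 9.20% and 4.92% of PS cells at day 3.5, against 0.146% and 0% at day 3. All cells with the epiblast or the rostral neurectoderm label were of the PS type.

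The early mesoderm types shared a main label. EOd cells made up 55.1% and 54.8% of the libraries at day 3.5, against 0.324% and 0.357% at day 3 (log2 change 7.32, SE 0.81, adjusted p = 0.000231, edgeR). At day 3.5 they were nascent mesoderm in 77.0% and 73.7% and mixed mesoderm in 21.9% and 25.01%. EOi cells made up 12.8% and 17.6% at day 3.5, against 1.04% and 1.07% at day 3 (log2 change 3.84, SE 0.54, adjusted p = 0.000580, edgeR). At day 3.5 they were nascent mesoderm in 41.5% and 69.4%, mixed mesoderm in 31.3% and 21.5%, PS in 11.5% and 3.46%, and surface ectoderm in 10.5% and 2.15%, so that the exp1 and exp2 libraries were far apart. At day 3 only 29 and 18 cells were EOi, with the PS label in 58.6% (95% Wilson interval 40.7 to 74.5) and 66.7% (43.7 to 83.7).

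The hematoendothelial types of day 3.5 differed in label. HE precursors, hematoendothelial cells at their first appearance, had 371 and 873 cells at day 3.5 and were mixed mesoderm in 62.3% and 64.9%, haematoendothelial progenitors in 26.4% and 20.7% and nascent mesoderm in 10.5% and 12.8%. HE cells, the next type on that path, had 65 and 129 cells and were haematoendothelial progenitors in 96.9% and 93.8%. Neither type had a cell at day 3. Adjusted p was 0.000827 for HE precursors and 0.00645 for HE (edgeR). HE precursors were mapped before E7.25 in 39.4% and 56.0%, more often than EOd cells (17.0% and 20.4%) in both libraries.

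**Figure D3:**
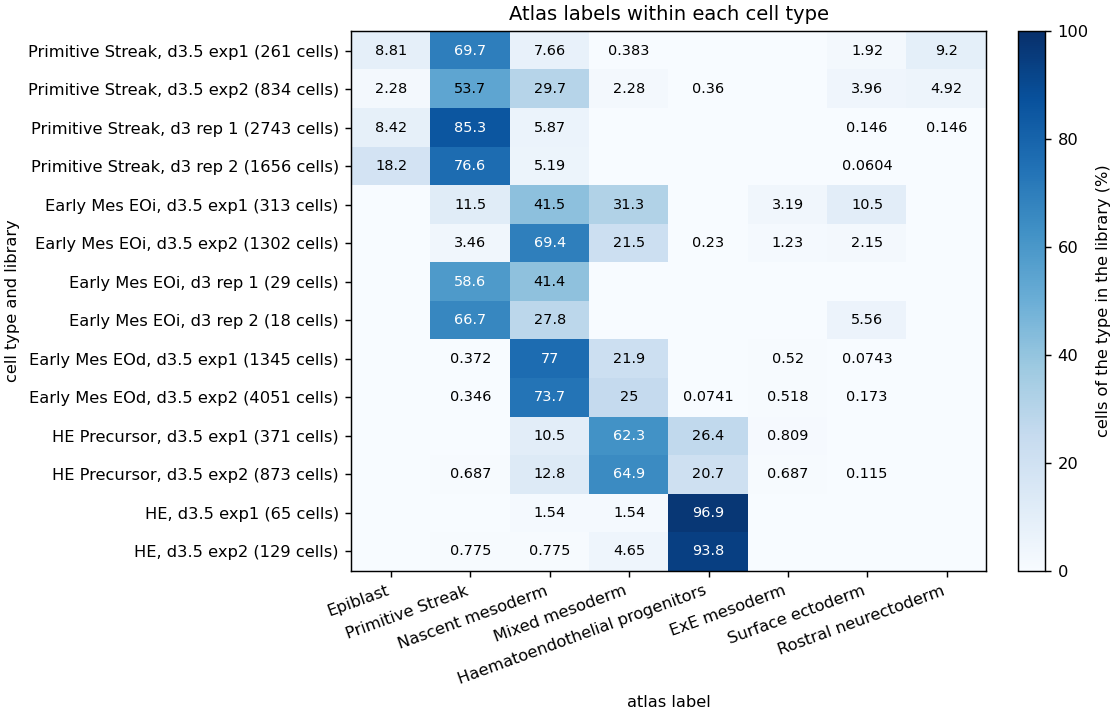
Share of the cells of a type in a library (%, colour and printed number) that had each atlas label shown (x axis). The rows (y axis, cells in brackets) are PS, EOi, EOd, HE precursors and HE, for each library with 15 or more cells of the type. An empty square is 0 cells, PGC, posterior mesoderm and mesenchyme types are left out, and PS cells had the PS label in 69.7% and 53.7% at day 3.5, against 85.3% and 76.6% at day 3.

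The 18 clusters that underlie the cell types divided the step more finely. Of the 18 tested, 9 were higher (50.0%) and 3 lower (16.7%) at day 3.5, 66.7% in all, and 14 of the 18 had any cell in these libraries. Under TMM scaling the numbers were 10 and 2. The 3 that fell were streak clusters. Cluster 2 made up 0.819% and 3.10% at day 3.5, against 46.9% and 41.9% at day 3 (log2 change -4.47, SE 0.78, adjusted p = 0.000700, edgeR). Cluster 7 made up 1.56% and 0.595% at day 3.5, against 38.1% and 42.1% at day 3 (log2 change -5.25, SE 0.71, adjusted p = 0.000177, edgeR). Cluster 16 made up 0.819% and 0.622% at day 3.5, against 4.46% and 6.90% at day 3 (log2 change -2.98, SE 0.66, adjusted p = 0.00429, edgeR), and missed the threshold with TMM factors (adjusted p = 0.0966).

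Another streak cluster did not pass the test. Cluster 11 made up 7.53% and 7.06% at day 3.5, against 9.24% and 7.62% at day 3, or 7.30% ± 0.332 and 8.43% ± 1.15 (SD, n = 2 each). Its log2 change was -0.21 (SE 0.49, adjusted p = 0.875, edgeR), and with TMM factors its sign turned (1.06, adjusted p = 0.271). Cluster 11 therefore took 70.1% and 61.8% of all PS cells at day 3.5, against 9.37% and 7.73% at day 3. Within it, 7.07% and 1.15% of cells had the epiblast label at day 3.5, against 24.1% and 35.9% at day 3, and 8.15% and 30.3% had the nascent mesoderm label at day 3.5, against 3.89% and 3.125% at day 3.

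The streak clusters differed in label already at day 3. Clusters 2 and 7 were mostly PS, in 93.6% and 91.6% of cluster 2 and in 85.1% and 69.6% of cluster 7, whose other main label was epiblast (14.4% and 30.2%). Cluster 16 was nascent mesoderm in 67.7% and 55.2% at day 3, and thus held 84 of the 182 and 64 of the 96 nascent mesoderm cells of the day 3 replicates.

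The EOd type was split differently by the 2 experiments. Cluster 0 held 26.7% (95% Wilson interval 24.4 to 29.1) of EOd cells in the exp1 library and 64.7% (63.2 to 66.2) in the exp2 library of day 3.5, and cluster 1 held 73.3% and 35.3%. As shares of all cells, cluster 0 made up 14.8% and 35.5% at day 3.5, against 0.108% and 0.179% at day 3 (log2 change 7.46, SE 0.94, adjusted p = 0.000152, edgeR), and cluster 1 made up 40.4% and 19.4% at day 3.5, against 0.216% and 0.179% at day 3 (log2 change 7.19, SE 1.18, adjusted p = 0.000534, edgeR). The clusters also differed in label: cluster 1 was nascent mesoderm in 92.0% and 98.0% of its cells at day 3.5, whereas cluster 0 was mixed mesoderm in 61.3% and 37.8% and nascent mesoderm in 35.4% and 60.2%, so that in exp2 nascent mesoderm led in both. The share of the EOd type (55.1% and 54.8%) and that of the mixed mesoderm label (26.2% and 25.8%) were close in the experiments in spite of this. The difference between the experiments has 1 library on each side. A chi-square test of the clusters of these 2 libraries (709.5, 12 df) covers counting error only.

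Clusters of later types were nearly or wholly confined to day 3.5 in these libraries. Cluster 14, which is the HE precursors, made up 15.2% and 11.8% at day 3.5 and 0 cells at day 3 (at least 94.3-fold higher, adjusted p = 0.000293, edgeR). Cluster 8 made up 6.55% and 6.63% at day 3.5, against 1 and 0 cells at day 3 (adjusted p = 9.41e-05, edgeR), and cluster 9 made up 2.66% and 2.58% at day 3.5 and 0 cells at day 3 (at least 18.3-fold higher, adjusted p = 0.000700, edgeR). These are EOi clusters, and their shares at day 3.5 had the smallest SDs of the 14 clusters (0.0568 and 0.0541 points, n = 2). Cluster 6, the third of EOi, was the one already seen at day 3, with 6.30% and 10.3% at day 3.5, against 1.01% and 1.07% at day 3 (log2 change 2.99, SE 0.61, adjusted p = 0.00163, edgeR). It also held 74.3% and 82.6% of the PGCs at day 3.5.

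The remaining clusters that were higher were small and had 0 cells at day 3. Cluster 3, which is the HE type, had 65 and 129 cells at day 3.5 (adjusted p = 0.00227, edgeR). Cluster 13 had 5 and 33 cells at day 3.5, nearly all of the posterior mesoderm type, and cluster 5 had 9 and 13, all of the mesenchyme type (adjusted p = 0.00914 and 0.0151, edgeR). The calls of clusters 13 and 5 were lost without replicate 1 of day 3 (adjusted p = 0.0547 and 0.0754, edgeR). The posterior mesoderm type had 9 and 34 cells and the mesenchyme type 9 and 13 cells at day 3.5 (adjusted p = 0.00250 and 0.0237, edgeR), and the call of mesenchyme was lost without replicate 1 or 2 of day 3 or replicate 1 of day 3.5 (adjusted p = 0.0927, 0.0518 and 0.0526, edgeR).

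**Figure D4:**
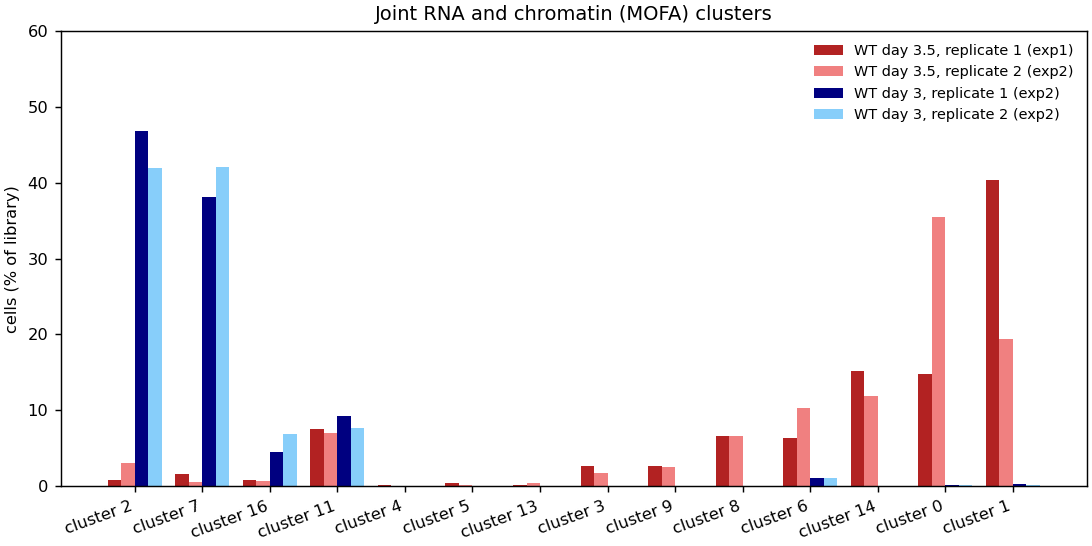
Share of cells (% of library, y axis up to 60%) in each joint RNA and chromatin cluster that had cells in these libraries (x axis, from the most lost to the most gained between the group means), with 1 bar per library. Clusters 2 and 7 made up 46.9% and 41.9%, and 38.1% and 42.1%, of the day 3 libraries, cluster 11 was near 7% to 9% in all 4, and clusters 0 and 1 swapped order between exp1 and exp2.

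RNA measures per cell were compared by the median of each library, where 2 against 2 libraries allow no p under 0.333. The share of mitochondrial RNA was 8.27% and 7.95% at day 3.5, against 5.90% and 5.595% at day 3. The groups did not overlap, and the means differed by 2.36 points (8.11% ± 0.226 and 5.75% ± 0.216, SD, n = 2 each, two-sided exact permutation test, p = 0.333, the smallest possible). In exp2 alone the difference was 2.20 points. Within the PS type it was 7.82% and 8.94% at day 3.5, against 5.90% and 5.62% at day 3, a difference of 2.62 points, so it was as large within 1 type. Among the other types of day 3.5, medians lay between 6.81% (HE, exp1) and 8.89% (EOi, exp1), all above the day 3 libraries. Mitochondrial RNA in a nuclear preparation also depends on how clean the nuclei are, and that part was not tested.

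The other measures did not separate the days over all cells. Ribosomal gene RNA was 10.98% and 8.43% at day 3.5, against 8.52% and 7.09% at day 3, with overlap. Within the PS type it was 12.1% and 9.0% at day 3.5, against 8.53% and 7.09% at day 3, where the groups no longer overlapped. The median number of genes detected was 5079 and 3498 at day 3.5, against 4228 and 4542 at day 3, and followed the RNA count. Among cells with an RNA count of 8000 to 12000, it was 3937.5 and 3812.5 at day 3.5 (248 and 2348 cells), against 3989.5 and 4070 at day 3 (1152 and 587 cells), both day 3.5 libraries being lower. Within that range the median RNA count still differed, at 10670 and 9457.5 at day 3.5, against 9952 and 10226 at day 3. Depth was thus not fully matched. In PS cells of that range the median number of genes was 4045 and 3820 at day 3.5, against 3989 and 4071 at day 3, with overlap. The doublet score was 0.26 and 0.18 at day 3.5, against 0.24 and 0.21 at day 3.

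**Figure D5:**
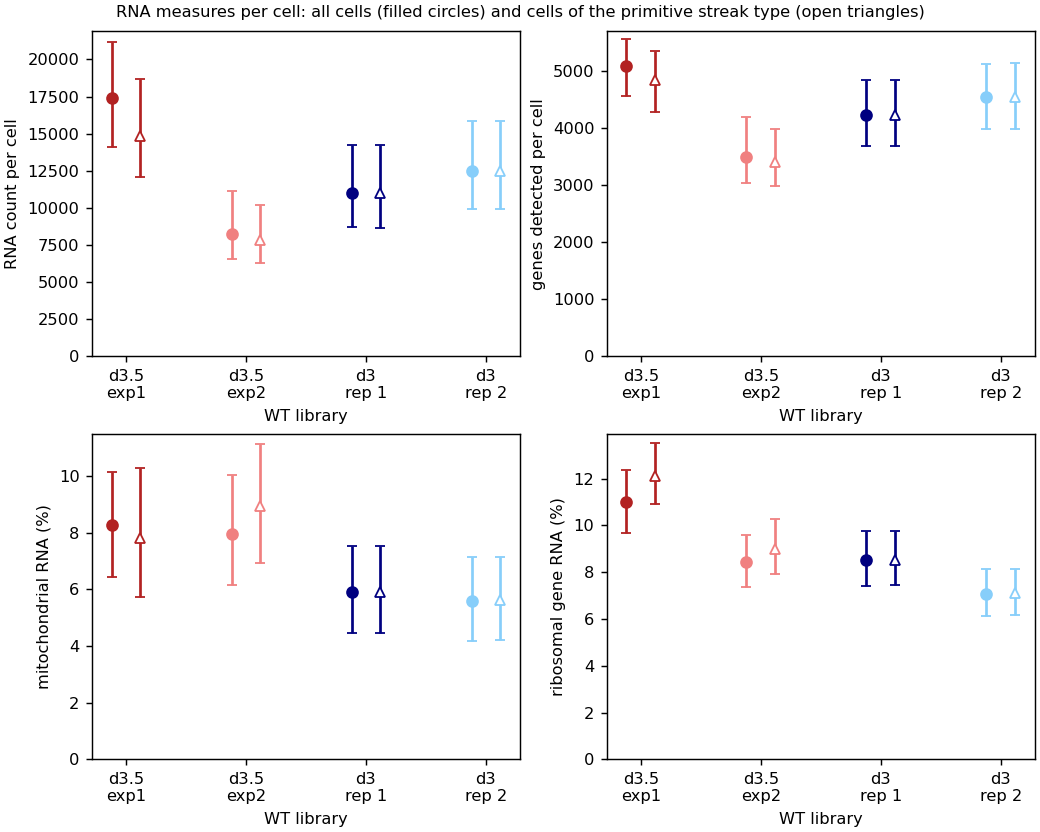
Median and interquartile range over cells (points and bars) of the RNA count, the number of genes detected, the mitochondrial and the ribosomal gene share of RNA (y axes, from 0) in each WT library (x axis, day 3.5 as d3.5 and day 3 as d3), for all cells (filled circles) and for PS cells (open triangles). Mitochondrial RNA is the measure whose library medians do not overlap over all cells, at 8.27% and 7.95% for day 3.5, against 5.90% and 5.595% for day 3.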

How the data were processed

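The deposited table of annotated cells (1 line per cell, 20 of its 28 columns used) was analysed. Per the study's methods, reads were processed by the authors with Cell Ranger ARC 2.0.1 on mm10, cells were filtered on RNA and chromatin quality, doublets were removed with scds, and MOFA+ factors of both modalities were clustered. RNA counts and genes detected per cell are counts that the authors left without normalization, so a count per cell follows sequencing depth. The percent of mitochondrial and of ribosomal gene RNA is the authors' share of each cell's RNA counts. The doublet score was computed by the authors with scds and has no unit. Label scores are deposited as a fraction, the share of nearest atlas cells behind a label, and were obtained by the authors for each library on its own. Since labels were transferred per library, a shift shared by a whole library can move all its labels. PGC cell types were taken by the authors from the atlas label, so both are 1 call.

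Cells were assigned to libraries by name, with 0 cells left over. Cells per label and library were tested with edgeR 4.0.16 (R 4.3.3), by the quasi-likelihood test with annotated cells as library size, a common dispersion and no abundance trend, in 1 fit of all 14 libraries in 9 groups by day and condition, for labels with 10 or more cells, with Benjamini-Hochberg adjustment over all labels tested and a threshold of 0.05. The SE of a log2 change was its absolute value divided by the square root of the F statistic, and was not a standard error from the fit. A fold against a group with 0 cells used a floor of 3 cells in each library, since the fitted change then depends on the prior count. Library means or medians were compared by exact permutation tests. Named were all labels with 1% or more of a library or past the test. Rostral neurectoderm, intermediate mesoderm and caudal epiblast met neither rule. They were described as well, but are not counted among the named labels. Members and label lists were chosen with earlier results of these data known. The alternatives were TMM factors, no filter on low counts, DESeq2 1.42.0, limma 3.58.1 on arcsine square root shares, the 4 libraries alone, day 3 libraries summed, the experiment as a block, each library left out, deeper cells, and cells with a score of 0.5 or more. Outside WT day 3, the replicate number is the experiment. Among groups with a library of each experiment, deviations from group means correlated by 0.262 to 0.661 over 20 atlas labels in all 6 pairs of groups. The block thus pairs the libraries of those groups. Both day 3 libraries are of exp2, so the block does not pair them with the exp1 and exp2 libraries of day 3.5. The test was also tested on simulated data drawn with a smaller dispersion than those fitted here (0.185 to 0.541). That check therefore does not cover a spread of this size. Tables were made with pandas 2.3.3 and numpy 2.4.6, exact tests with scipy 1.17.1 and figures with matplotlib 3.10.9, all in Python 3.11.15.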

Additional observations from a re-analysis of the deposited data

How the results depend on the processing

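The number of lower atlas labels was 2, but 0 with TMM factors, 1 without a filter on low counts, 1 with the day 3 libraries summed and 1 each time a library was left out. For extended labels, 6 were higher, but 3 with TMM factors and 3 with the day 3 libraries summed, and from 3 to 5 when a library was left out. There, 1 was lower, but 0 with TMM factors and 2 without a filter, with DESeq2, with limma, in the 4 libraries alone, with the experiment as a block, in cells of higher RNA count and in cells with a score of 0.5 or more. The stages called higher (3) were 0 with limma, 0 with the day 3 libraries summed, 1 in cells of higher RNA count, 0 in cells with a score of 0.5 or more and from 0 to 3 when a library was left out. The stage called lower (1) was 0 with the day 3 libraries summed, 0 in cells with a score of 0.5 or more and from 0 to 1 when a library was left out. The cell type called lower (1) was 0 with TMM factors. The difference in mean mapped stage was -0.0154 embryonic days in cells of higher RNA count, and in PS cells the differences were 2.62 points in mitochondrial RNA and -0.055 in doublet score. Cluster 11, not called, turned to a log2 change of 1.06 with TMM factors. The causes of these changes were not tested.

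Of 43 named labels, stages, clusters and types, 42 kept their call with the experiment as a block (extended epiblast, -6.42, adjusted p = 0.00211 with edgeR, was gained), 42 in the 4 libraries alone, 42 with DESeq2, 41 without a filter, 35 with the day 3 libraries summed, 34 with TMM factors, 31 with limma, and 33 and 34 without replicate 1 or 2 of day 3. When day 3 was left with 1 library, it was assumed to vary like the other groups. Scores exist for labels and stages only, so that alternative was not run for clusters and types. Depth limits small labels: with 1680 cells in the smallest library, a share under 0.179% could be missed.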
